A study of Mus musculus with 8 samples.

Results

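The 37 genes described here encode proteins that copy nuclear DNA and make its deoxynucleotide building blocks. They were taken by gene symbol from a table of 28901 genes, counted by RNA sequencing in MC3T3-E1 cells, an established pre-osteoblast line from mouse calvaria. The study concerns BRD9, a subunit of a chromatin remodelling complex, Wnt/β-catenin signalling, and the osteoblast transcription factor Sp7. There are 8 libraries in 4 groups of 2, and the sample titles name the groups Brd, control, NM-Brdi and NM-DMSO. According to the series' design, cells were given I-BRD9, a BRD9 inhibitor, at 10 µM or DMSO, its vehicle, and were differentiated in medium holding dexamethasone (0.1 µM) with ascorbic acid and glycerophosphate. The titles do not tell which libraries had the inhibitor or the differentiation medium, or what NM means, so the groups are called by title. No genotype, allele or culture time is labelled, and all groups share the cell line, which is a single established line. Separate cultures are not stated for the 2 libraries of any group, so every p-value is against a spread that could be technical alone.

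DNA replication is prepared in G1, when the origin recognition complex, Cdc6 and Cdt1 load the MCM2-7 helicase onto origins. In S phase Mcm10, Cdc45 and the GINS complex turn the loaded helicase into an active one. Polymerase alpha with primase then starts each strand, polymerases epsilon and delta extend it on the sliding clamp PCNA, and flap endonuclease and ligase join the lagging strand pieces. E2F1 is a transcription factor that turns on many of these genes in late G1, and cyclin E is a partner of the kinase CDK2 at the entry into S phase. Ribonucleotide reductase and thymidylate synthase supply deoxynucleotides. Pre-osteoblasts in culture are known to proliferate first and to slow their cycling as they differentiate.

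The sequences shown are stretches upstream of the RefSeq starts of Orc1, Mcm5 and Pola1. These genes were all called lower in Brd against control, as described further on. They were picked as the genes with a window and the lowest fitted fold change in Brd against control of their role groups. The 4 role groups where that value was lowest were used. The stretch of the remaining gene, Rfc3, is not shown, because no whole match lay in exon-free bases before its start. The sequences shown come from RefSeq on GRCm38.p6 and run 5′ to 3′ on the strand of the gene. They leave out exons of protein-coding transcripts, and mark the E2F motif in capitals. Orc1 is shown at chr4:108579337-108579453 on the plus strand, Mcm5 at chr8:75109349-75109508 on the plus strand and Pola1 at chrX:93632156-93632315 on the minus strand. In the GENCODE M21 annotation the Orc1 gene starts at 108579423, before its RefSeq start. The end of the Orc1 stretch, with the marked match, lies inside the gene as annotated there.
Orc1: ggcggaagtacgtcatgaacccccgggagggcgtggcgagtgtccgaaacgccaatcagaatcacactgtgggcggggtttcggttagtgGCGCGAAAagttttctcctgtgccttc
Mcm5: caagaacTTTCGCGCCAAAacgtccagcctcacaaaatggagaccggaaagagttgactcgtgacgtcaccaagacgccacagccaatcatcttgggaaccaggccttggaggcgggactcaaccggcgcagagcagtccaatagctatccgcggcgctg
Pola1: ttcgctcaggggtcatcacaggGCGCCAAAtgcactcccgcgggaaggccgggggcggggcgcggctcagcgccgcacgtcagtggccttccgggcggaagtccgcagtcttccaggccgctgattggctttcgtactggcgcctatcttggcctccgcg

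The motif was searched as TTTCCCGC, TTTCGCGC, TTTGCCGC and TTTGGCGC on both strands, in windows that run 250 bases before to 50 bases after a start. In Mcm5, matches on opposite strands overlap and share their inner bases. Of the 37 genes, 29 had 33 windows, and 13 of these windows (39.4%) held a match, each in a different gene. The share was 2.26% of all 32851 windows and 3.87% of the 13214 windows of genes tested here. The CCAAT box, searched as CCAAT, was in 54.5% of the 33 windows, against 38.2% of the windows of tested genes. The GC box, searched as GGGCGG, was in 69.7%, against 61.3%, and the CHR element, searched as TTTGAA or TTCGAA, was in 18.2%, against 14.2%. A match is a string of letters and not a shown binding site.

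Total counts ran from 16918182 to 24555028 per library, and 1 CPM, the count scaled to library size with TMM factors, stood for 16.4 to 26.1 counts. All 37 genes passed the filter on low counts, with at least 35 counts in every library. The 8 markers of osteoblasts differed widely in level. Col1a1 had 2340 to 3911 CPM and Runx2 204 to 468 CPM over the libraries, Bglap 1.65 to 8.73 CPM and Alpl 2.83 to 70.7 CPM, and Ibsp ran between 2.49 CPM in NM-Brdi and 1943 CPM in control. The summed markers of adipocytes, endothelium and epithelium stayed under 1 CPM in every library. On the first principal component, which held 58% of the variance, the Brd and control libraries lay at -38.0 to -31.9. The NM-Brdi libraries and NM-DMSO replicate 2 lay at 18.1 to 23.3, and NM-DMSO replicate 1 stood apart at 76.8. Processed pseudogenes took 21.2% of the counts of NM-DMSO replicate 1, and 14.8% to 18% of those of the other 7 libraries.

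In Brd against control, 2 origin licensing genes, 3 subunits of the MCM helicase, Mcm10 and Pola1 fell, and the other 30 genes did not pass the test. With edgeR's quasi-likelihood test and Benjamini-Hochberg adjustment over 17038 genes, 7 of the 37 genes were called lower at an adjusted p under 0.05 and 0 were called higher. DESeq2 called 9 lower and 0 higher, against 4.7% and 4.11% of all tested genes. In edgeR's quasi-likelihood test, 3.45% of all tested genes were called lower and 3.13% higher. The called genes were Orc1, Cdt1, Mcm3, Mcm4, Mcm5, Mcm10 and Pola1, with fitted folds of 1.43 to 1.87 lower in Brd. The fitted fold change was negative for 35 of 37 genes, against 49.7% of all tested genes, and an unadjusted p under 0.05 on the lower side was reached by 19 of 37, against 10.5%, and on the higher side by 0, against 9.71%. Both Brd libraries lay below both control libraries for 32 genes (33.2% of all tested genes do so), and for 0 genes did both lie above (32.9%). The median log2 fold change was -0.39 over the 37 genes and 0.001 over all tested genes. In bulk RNA, fewer cells in S phase and less RNA per cell cannot be told apart.

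The number of calls depended on which libraries were in the fit. It was 0 in each of the 4 fits that left out a Brd or a control library, where the lone remaining library is assumed to vary like the others, and 0.118% to 0.349% of all tested genes were called lower. It was 1 without either NM-Brdi library, when 1.87% and 1.89% of all tested genes were called lower. It was 24 without NM-DMSO replicate 1 and 24 without NM-DMSO replicate 2, when 16.6% and 15.9% of all tested genes were called lower. The median over the 37 genes moved less, from -0.40 to -0.35 over these 8 fits, with 33 to 36 genes on the lower side.

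**Figure D1:**
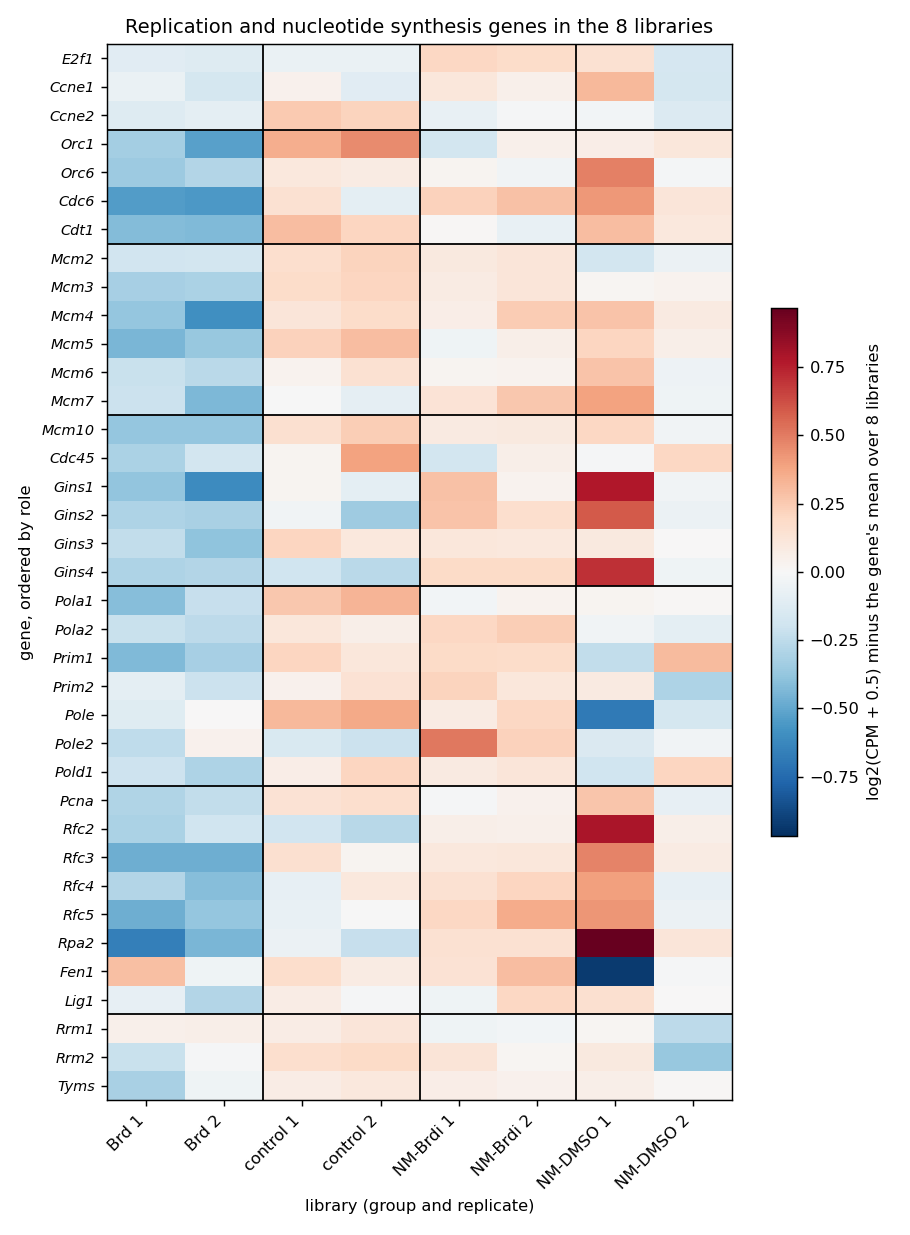
Heat map of the 37 genes (rows, ordered by role, with black lines between roles) in the 8 libraries (columns); colour is log2(CPM + 0.5) minus the gene's mean over the 8 libraries. Both Brd columns are blue for most genes, and NM-DMSO replicate 1 holds the most extreme values, 0.97 for Rpa2 and -0.93 for Fen1.

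The summed level of the 37 genes was 1098 and 1112 CPM in Brd, against 1398 and 1413 CPM in control. It was 1358 and 1382 CPM in NM-Brdi, against 1464 and 1238 CPM in NM-DMSO. The Brd libraries were the lowest of the 8. Both Brd libraries were the lowest of all 8 libraries for 24 of the 37 genes, against 14.6% of all tested genes. Both control libraries were the highest for 10 genes, against 12% of all tested genes. Both NM-Brdi libraries were the highest for 3 genes (4.64% of all tested genes) and the lowest for 0 (5.04%). Marker sums of other cell types also moved between these libraries. The macrophage and osteoclast list summed to 56.1 and 57.7 CPM in Brd, against 75.5 and 72.0 CPM in control, nearly all of it Ctsk, with Ptprc and Adgre1 under 0.2 CPM in every library. The chondrocyte list summed to 267 and 278 CPM in Brd, against 327 and 317 CPM in control, with Col2a1 at 137.5 and 140 CPM in Brd against 141 and 143.1 CPM in control, and Acan at 0 in 7 of the 8 libraries. The skeletal muscle list, with 2 of its 4 genes counted, summed to 17.7 and 16.4 CPM in Brd, against 13.0 and 11.4 CPM in control. Its 2 counted genes went opposite ways. Acta1 had 16.54 and 15.46 CPM in Brd, against 9.772 and 8.515 CPM in control. Des had 1.159 and 0.9196 CPM in Brd, against 3.189 and 2.918 CPM in control. The osteoblast list summed to 9798 and 10050 CPM in Brd, against 11220 and 11950 CPM in control, and most of that sum is Col1a1 and Col1a2. Col1a1 had 3557 and 3609 CPM in Brd, against 3551 and 3911 CPM in control. Col1a2 was the 1 gene of the list on the higher side, with 5189 and 5213 CPM in Brd, against 4223 and 4609 CPM in control. Of the 8 osteoblast genes, 5 were called lower by edgeR's quasi-likelihood test and 0 higher. Of all tested genes, 3.45% were called lower in that test. The median log2 fold change of the osteoblast list was -0.89, against -0.39 for the 37 replication genes. Ibsp, a bone matrix protein gene, had 429 and 547 CPM in Brd, against 1913 and 1943 CPM in control. Alpl, the alkaline phosphatase of osteoblasts, had 13.6 and 16.7 CPM in Brd, against 69.2 and 70.7 CPM in control. Spp1, osteopontin, had 141 and 152 CPM in Brd, against 585 and 549 CPM in control. The part of these shifts in the replication genes was not tested.

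Levels compared between genes are given per kilobase of exon. In control, Pcna had 40.4 and Rrm2 38.2 CPM per kilobase, the highest mean levels of the 37 genes. Reads counted on pseudogene copies are left out of these levels, so the order holds for the gene rows alone. E2f1, Mcm4, Mcm3 and Mcm6 followed at 21.1 to 19.0 CPM per kilobase. Pole2 had 0.784 CPM per kilobase, the lowest, below Orc1 at 2.04.

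Of the upstream regulators, E2f1 and Ccne1 showed small differences in Brd against control, and Ccne2 a larger one. By edgeR's quasi-likelihood test or by DESeq2, 0 of the 3 were called. In edgeR's quasi-likelihood test 1, Ccne2, was lower at an unadjusted p under 0.05. E2f1 had 64.5 and 63.8 CPM in Brd, against 66.7 and 66.4 CPM in control, and 79.8 and 78.7 CPM in NM-Brdi, against 77.2 and 62.0 CPM in NM-DMSO. The Brd libraries lay just below control, with a log2 fold change of -0.05 ± 0.12 (SE) and an adjusted p of 0.898 in edgeR's quasi-likelihood test. Ccne1, cyclin E1, had 20.99 and 19.5 CPM in Brd, against 22.6 and 20.3 CPM in control, and 23.8 and 22.7 CPM in NM-Brdi, against 27.4 and 19.4 CPM in NM-DMSO. Brd and control overlapped, with a log2 fold change of -0.09 ± 0.18 (SE). Ccne2, cyclin E2, had 37.3 and 38.1 CPM in Brd, against 48.6 and 47.4 CPM in control, and 38.8 and 40.4 CPM in NM-Brdi, against 40.1 and 37.1 CPM in NM-DMSO. Control stood above all 6 other libraries. The log2 fold change in Brd against control was -0.35 ± 0.10 (SE), with an adjusted p of 0.0934 in edgeR's quasi-likelihood test. The difference between E2f1 and the genes it is known to act on was not tested.

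Origin recognition and licensing had the lowest median of the 7 role groups in Brd against control, at -0.65. Of its 4 genes, 2 were called lower, against 3.45% of all tested genes. Orc1, the largest subunit of the origin recognition complex, had 4.09 and 3.51 CPM in Brd, against 6.84 and 7.38 CPM in control, and 4.60 and 5.44 CPM in NM-Brdi, against 5.51 and 5.70 CPM in NM-DMSO. Both Brd libraries lay at the bottom of the 8 and both control libraries at the top. Orc1 fell 1.87-fold in Brd against control, a log2 fold change of -0.90 ± 0.19 (SE) with an adjusted p of 0.0338 in edgeR's quasi-likelihood test. Its reads are few, with 61 to 67 counts in Brd, and its exons overlap those of Gm12743 on the other strand, which had 15.9% as many counts. Cdt1, which brings the MCM helicase to origins, had 18.5 and 18.5 CPM in Brd, against 30.8 and 28.9 CPM in control, and 25.2 and 23.7 CPM in NM-Brdi, against 30.8 and 26.9 CPM in NM-DMSO. No other library was as low as Brd. Cdt1 fell 1.62-fold in Brd against control, a log2 fold change of -0.69 ± 0.12 (SE) with an adjusted p of 0.0177 in edgeR's quasi-likelihood test.

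Cdc6, the ATPase that works with the origin recognition complex, had 11.7 and 11.5 CPM in Brd, against 19.0 and 16.1 CPM in control, and 20.1 and 21.04 CPM in NM-Brdi, against 23.1 and 18.7 CPM in NM-DMSO. The Brd libraries were the lowest of the 8. The log2 fold change in Brd against control was -0.60 ± 0.16 (SE), with an adjusted p of 0.0654 in edgeR's quasi-likelihood test. Orc6, a smaller subunit of the complex, had 24.5 and 25.7 CPM in Brd, against 33.7 and 33.2 CPM in control, and 31.98 and 30.7 CPM in NM-Brdi, against 44.1 and 30.9 CPM in NM-DMSO. Brd was again lowest, and NM-DMSO replicate 1 stood above the rest. The log2 fold change was -0.41 ± 0.17 (SE), with an adjusted p of 0.222 in edgeR's quasi-likelihood test.

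All 6 subunits of the MCM2-7 helicase had both Brd libraries below both control libraries, as did 33.2% of all tested genes. Of the 6, 3 were called lower, against 3.45% of all tested genes. Mcm5 had 40.0 and 42.1 CPM in Brd, against 63.6 and 66.9 CPM in control, and 52.9 and 56.4 CPM in NM-Brdi, against 62.9 and 56.7 CPM in NM-DMSO. Its log2 fold change in Brd against control was -0.67 ± 0.11 (SE), with an adjusted p of 0.0116 in edgeR's quasi-likelihood test, the smallest of the 37 genes. Mcm4 had 50.2 and 42.9 CPM in Brd, against 70.5 and 73.7 CPM in control, and 68.1 and 77.3 CPM in NM-Brdi, against 78.7 and 69.1 CPM in NM-DMSO. Its log2 fold change was -0.63 ± 0.13 (SE), with an adjusted p of 0.0270. Mcm3 had 49.9 and 50.5 CPM in Brd, against 70.9 and 72.4 CPM in control, and 66.0 and 67.7 CPM in NM-Brdi, against 63.3 and 64.0 CPM in NM-DMSO. Its log2 fold change was -0.51 ± 0.09 (SE), with an adjusted p of 0.0174. For each of Mcm3, Mcm4 and Mcm5 the Brd libraries lay below all 6 other libraries.

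Mcm2 had 82.4 and 83.1 CPM in Brd, against 105 and 109 CPM in control, and 100.4 and 102 CPM in NM-Brdi, against 82.8 and 90.3 CPM in NM-DMSO. Brd and NM-DMSO replicate 1 were close together at the bottom. The log2 fold change in Brd against control was -0.37 ± 0.09 (SE), with an adjusted p of 0.0595 in edgeR's quasi-likelihood test. Mcm7 had 14.6 and 12.4 CPM in Brd, against 16.9 and 15.9 CPM in control, and 18.6 and 20.4 CPM in NM-Brdi, against 22.3 and 16.5 CPM in NM-DMSO. Its log2 fold change was -0.28 ± 0.18 (SE), with an adjusted p of 0.457, and most reads like it were counted on a pseudogene. Mcm6 averaged 70.6 ± 1.6 CPM in Brd and 88.8 ± 5.1 CPM in control (SD, n = 2 each) and was not called.

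**Figure D2:**
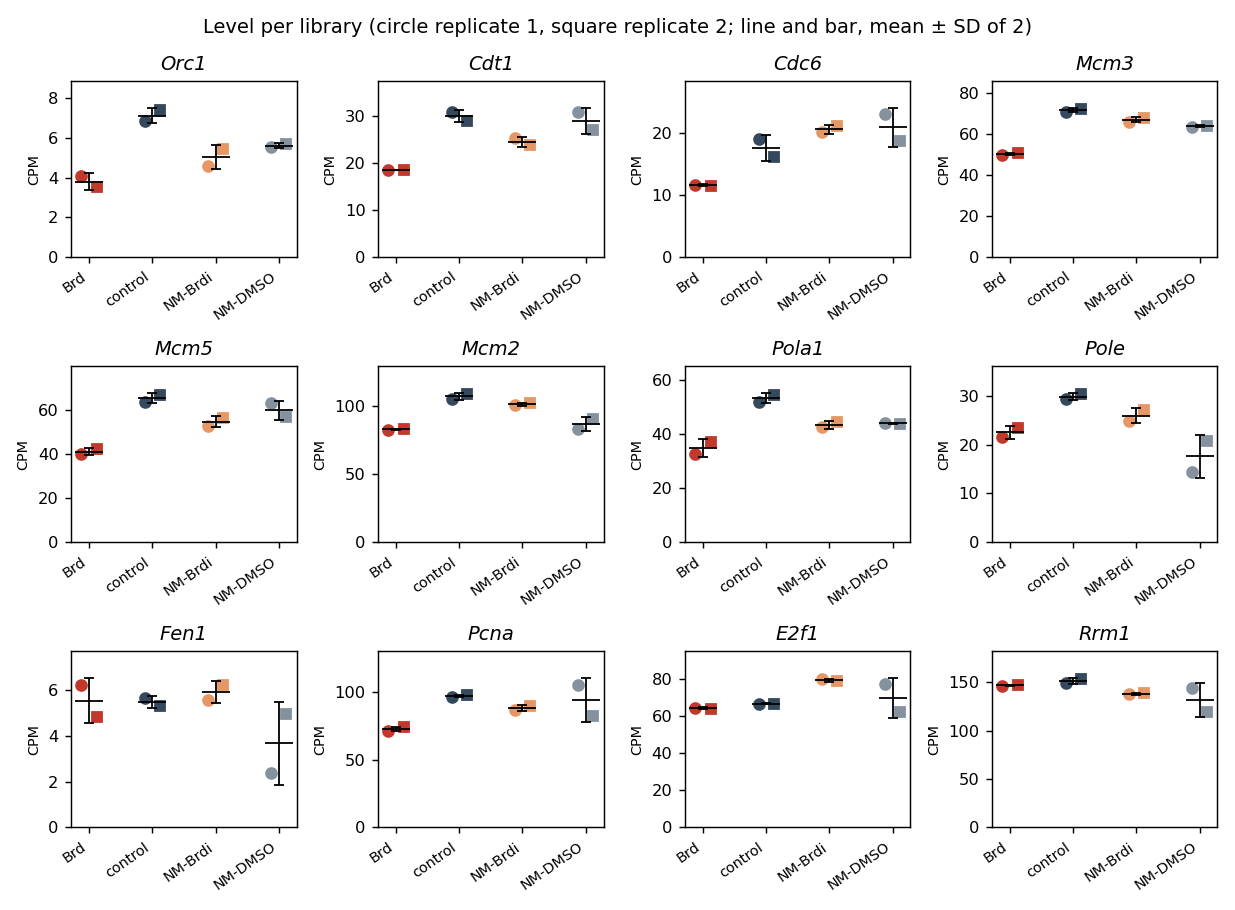
CPM per library (y axis, from 0) of 12 genes in the 4 groups (x axis); circles are replicate 1, squares replicate 2, and the line and bar are the mean ± SD of 2 libraries. Orc1, Cdt1, Cdc6, Mcm3, Mcm5 and Pola1 have their lowest points in Brd, whereas E2f1 and Rrm1 have Brd close to control, and Pole and Fen1 have their lowest point in NM-DMSO replicate 1.

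Among the 6 genes of helicase activation, 1 was called lower in Brd against control, against 3.45% of all tested genes. Mcm10, which helps the helicase start, had 18.2 and 18.2 CPM in Brd, against 26.5 and 28.1 CPM in control, and 25.3 and 25.4 CPM in NM-Brdi, against 27.4 and 23.2 CPM in NM-DMSO. Brd lay below the 6 other libraries, and Mcm10 fell 1.498-fold, a log2 fold change of -0.58 ± 0.13 (SE) with an adjusted p of 0.0350 in edgeR's quasi-likelihood test. Cdc45, a part of the active helicase, had 6.35 and 7.01 CPM in Brd, against 8.13 and 10.6 CPM in control, and 7.01 and 8.34 CPM in NM-Brdi, against 7.89 and 9.22 CPM in NM-DMSO. Its control libraries were spread widely, and the adjusted p was 0.228. The GINS subunits split, with log2 fold changes of -0.49 for Gins1 and -0.48 for Gins3, and of -0.13 for Gins2 and -0.07 for Gins4. By edgeR's quasi-likelihood test and by DESeq2 0 of these 4 were called, with 1, Gins3, at an unadjusted p under 0.05. Gins4 had 14.0 and 14.1 CPM in Brd, against 15.1 and 14.4 CPM in control, and 19.8 and 19.8 CPM in NM-Brdi, against 28.6 and 16.8 CPM in NM-DMSO. Both groups with the NM prefix were above both others for Gins4.

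Of the 7 polymerase and primase genes, 1 was called lower in Brd against control, against 3.45% of all tested genes. Pola1, the catalytic subunit of polymerase alpha, had 32.7 and 37.2 CPM in Brd, against 52.2 and 54.8 CPM in control, and 42.6 and 44.6 CPM in NM-Brdi, against 44.3 and 43.8 CPM in NM-DMSO. Its groups were ordered with Brd lowest and control highest, without overlap of those with the rest. Pola1 fell 1.53-fold in Brd against control, a log2 fold change of -0.61 ± 0.11 (SE) with an adjusted p of 0.0182 in edgeR's quasi-likelihood test. Pole, the catalytic subunit of the leading-strand polymerase, had 21.5 and 23.4 CPM in Brd, against 29.3 and 30.3 CPM in control, and 24.8 and 27.0 CPM in NM-Brdi, against 14.4 and 20.7 CPM in NM-DMSO. Here NM-DMSO was the lowest group, not Brd. The log2 fold change in Brd against control was -0.41 ± 0.18 (SE), with an adjusted p of 0.249. Pole2, its second subunit, had 2.14 and 2.701 CPM in Brd, against 2.31 and 2.20 CPM in control, and 3.95 and 3.14 CPM in NM-Brdi, against 2.33 and 2.54 CPM in NM-DMSO. Brd and control overlapped, with the highest log2 fold change of the 37 genes at 0.10 ± 0.26 (SE). Pola2, Prim1, Prim2 and Pold1 had log2 fold changes of -0.55 to -0.25 and were not called. Each had both Brd libraries below both control libraries, as did 33.2% of all tested genes.

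In the group of the clamp, its loader, RPA, flap endonuclease and ligase, 0 of 8 genes were called in Brd against control, and 2 reached an unadjusted p under 0.05, both lower. DESeq2 called 0 of these 8 as well. Pcna, the sliding clamp, had 71.3 and 73.8 CPM in Brd, against 96.4 and 97.7 CPM in control, and 86.8 and 90.0 CPM in NM-Brdi, against 105 and 82.3 CPM in NM-DMSO. The Brd libraries were the lowest of the 8, with a log2 fold change of -0.42 ± 0.13 (SE) and an adjusted p of 0.105 in edgeR's quasi-likelihood test. Rfc3, a subunit of the clamp loader, had 6.47 and 6.50 CPM in Brd, against 10.3 and 9.35 CPM in control, and 9.88 and 9.93 CPM in NM-Brdi, against 13.0 and 9.76 CPM in NM-DMSO. Brd was lowest again, with a log2 fold change of -0.60 ± 0.18 (SE) and an adjusted p of 0.105. Fen1, the flap endonuclease of lagging strand maturation, had 6.22 and 4.83 CPM in Brd, against 5.66 and 5.30 CPM in control, and 5.55 and 6.23 CPM in NM-Brdi, against 2.38 and 4.94 CPM in NM-DMSO. Brd and control overlapped. The fitted log2 fold change of Fen1 was 0.01 ± 0.33 (SE), and its sign turned without Brd replicate 1, at -0.18. Rpa2, a subunit of the single-strand binding protein RPA, had 14.3 and 16.7 CPM in Brd, against 22.0 and 19.5 CPM in control, and 25.4 and 25.4 CPM in NM-Brdi, against 45.2 and 24.8 CPM in NM-DMSO. Its log2 fold change in Brd against control was -0.42 ± 0.26 (SE), with an adjusted p of 0.447. Rfc2, Rfc4, Rfc5 and Lig1 had log2 fold changes of -0.39 to -0.02 and were not called.

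Of the deoxynucleotide genes 0 of 3 were called, and 0 reached an unadjusted p under 0.05, in edgeR's quasi-likelihood test, with a median log2 fold change of -0.26, and DESeq2 called 0 of them. Rrm1, the large subunit of ribonucleotide reductase, had 146 and 147 CPM in Brd, against 149 and 154 CPM in control, and 138 and 139 CPM in NM-Brdi, against 144 and 119 CPM in NM-DMSO. Its log2 fold change in Brd against control was -0.04 ± 0.11 (SE). Rrm2, the small subunit, had 80.7 and 92.9 CPM in Brd, against 105 and 106 CPM in control, and 102 and 94.6 CPM in NM-Brdi, against 100.1 and 72.4 CPM in NM-DMSO. Brd lay below control, with a log2 fold change of -0.28 ± 0.16 (SE) and an adjusted p of 0.39. Tyms, thymidylate synthase, had 13.0 and 15.9 CPM in Brd, against 17.2 and 17.5 CPM in control, and 17.1 and 16.8 CPM in NM-Brdi, against 17.02 and 16.5 CPM in NM-DMSO. The Brd libraries were the lowest of the 8, with a log2 fold change of -0.26 ± 0.14 (SE) and an adjusted p of 0.350. The p-values of this role group do not show that its levels were alike in Brd and control.

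The promoter split gives no test. The 13 genes with an E2F match had a median log2 fold change of -0.51 in Brd against control, and 5 were called, namely Orc1, Cdt1, Mcm3, Mcm5 and Pola1. The 16 genes with a window and no match had a median of -0.38, and 1 of them, Mcm10, was called. Mcm4, the remaining called gene, had no window. Over all tested genes, 3.45% were called lower in Brd against control. The relation of a match to the fold change was not tested.

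In NM-Brdi against NM-DMSO, 0 of the 37 genes were called lower and 0 higher by edgeR's quasi-likelihood test, against 1.05% and 0.816% of all tested genes. At an unadjusted p under 0.05, 0 were lower (12.7% of all tested genes) and 3 higher (8.94%). DESeq2 also called 0 lower and 0 higher, against 3.09% and 2.29% of all tested genes. The fitted fold change was negative for 18 genes and positive for 19, against 50.4% and 49.4% of all tested genes. The median was 0.002 for the 37 genes and -0.004 for all tested genes. The most positive values were 0.68 ± 0.32 (SE) for Fen1, 0.56 ± 0.18 (SE) for Pole and 0.54 ± 0.24 (SE) for Pole2. The most negative were -0.46 ± 0.25 (SE) for Rpa2 and -0.42 ± 0.22 (SE) for Rfc2. These values moved with the NM-DMSO library left out. Without NM-DMSO replicate 1 Rpa2 was at 0.04, Fen1 at 0.26 and Pole at 0.33, and without NM-DMSO replicate 2 they were at -0.83, 1.31 and 0.85. Over all fits that left out 1 library, Rfc2 ran from -0.74 to 0.001 and Pole2 from 0.36 to 0.70. In the osteoblast list 6 of 8 genes were called lower in this contrast, with a median of -0.87. In fits that left out 1 NM-DMSO library, the lone remaining library is assumed to vary like the others. The calls among the 37 replication genes also moved with NM-DMSO replicate 1. Without that library 6 genes were called higher and 0 lower, when 6.94% and 7.22% of all tested genes were called. Without NM-DMSO replicate 2, 6 were called higher and 11 lower, when 26.6% and 27.8% of all tested genes were called.

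**Figure D3:**
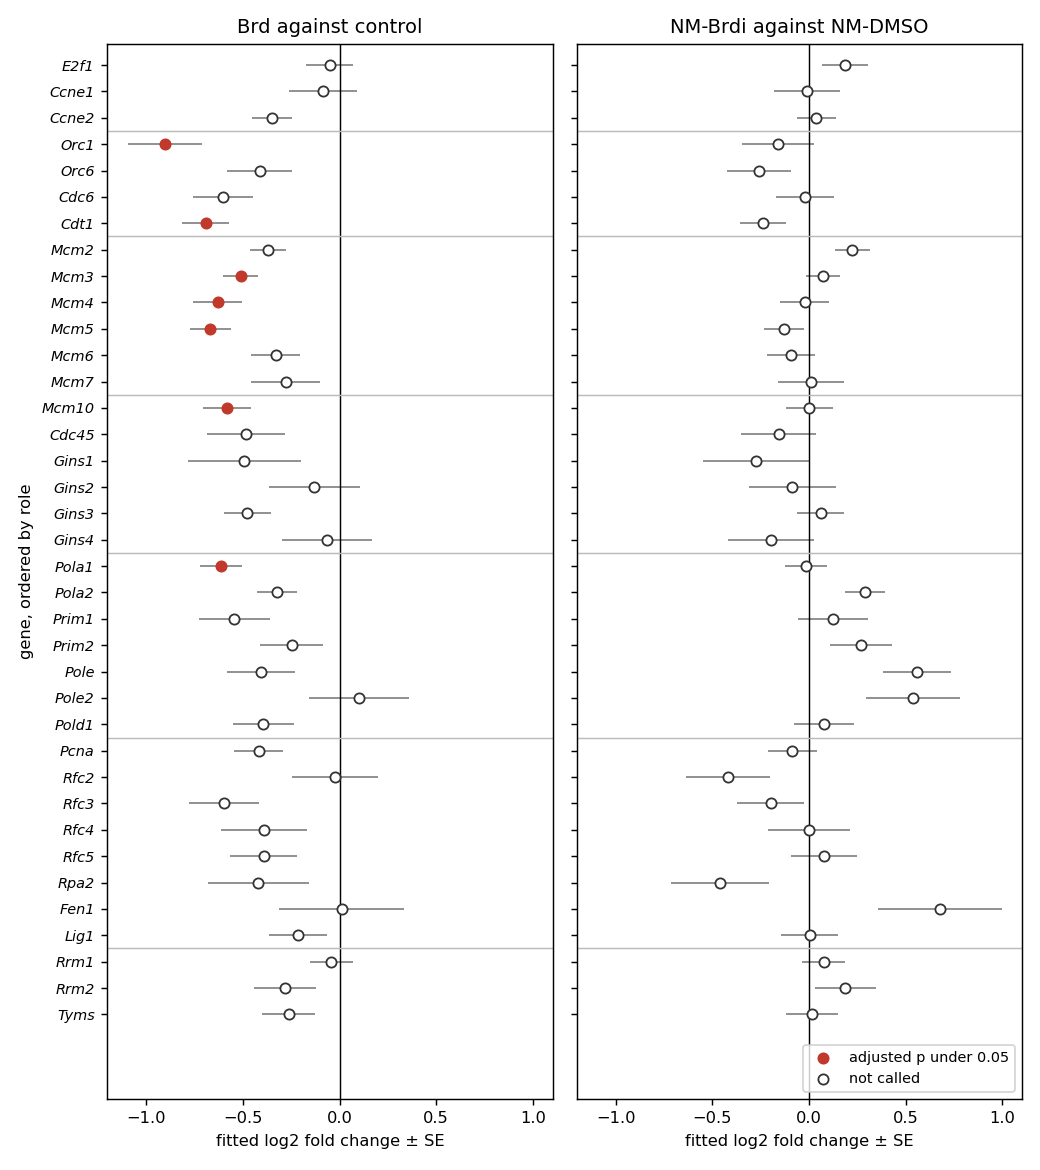
Fitted log2 fold change ± SE (x axis) of the 37 genes (y axis, by role, with grey lines between roles) in Brd against control (left) and NM-Brdi against NM-DMSO (right); filled red points have an adjusted p under 0.05. On the left 35 of 37 points lie below 0, and on the right 18 lie below and 19 above.

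The difference between these 2 contrasts was tested as an interaction, which uses all 8 libraries and so shares libraries with both. With edgeR's quasi-likelihood test 0 of the 37 genes were called lower and 0 higher, against 0.0293% and 0.0117% of all tested genes. An unadjusted p under 0.05 was reached by 14 genes on the lower side, against 5.51% of all tested genes, and by 0 on the higher side, against 3.77%. DESeq2 called 2 lower and 0 higher, against 1.39% and 0.376% of all tested genes. The interaction was negative for 34 of 37 genes, against 47% of all tested genes, and positive for 3, against 53%, with a median of -0.44 for the 37 and 0.03 for all. It was -0.97 ± 0.25 (SE) for Pole, -0.74 ± 0.27 (SE) for Orc1, -0.58 ± 0.13 (SE) for Mcm3 and -0.54 ± 0.15 (SE) for Mcm5. The smallest adjusted p of the 37 was 0.145, for Mcm3. Without NM-DMSO replicate 1 all 37 interactions were negative, with a median of -0.54. Without NM-DMSO replicate 2, 29 were negative, with a median of -0.33. Each of these fits left NM-DMSO with a lone library, which is assumed to vary like the others.

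Brd against NM-Brdi, which reuses the Brd and NM-Brdi libraries, gave 6 genes called lower and 0 higher by edgeR's quasi-likelihood test. Of all tested genes, 3.77% were called lower and 6.73% higher. The called genes were Cdc6 with a log2 fold change of -0.83 ± 0.15 (SE), Rfc5 with -0.72 ± 0.17 (SE), Mcm4 with -0.64 ± 0.13 (SE), Pola2 with -0.46 ± 0.10 (SE), Mcm3 with -0.41 ± 0.09 (SE) and Mcm5 with -0.41 ± 0.11 (SE). Their adjusted p-values ran from 0.0151 for Cdc6 to 0.0468 for Mcm5. Pola2, the regulatory subunit of polymerase alpha, averaged 28.2 ± 0.6 CPM in Brd and 38.8 ± 0.7 CPM in NM-Brdi (SD, n = 2 each). Rfc5, a clamp loader subunit, averaged 20.99 ± 1.04 CPM in Brd and 34.5 ± 2.7 CPM in NM-Brdi (SD, n = 2 each). Both Brd libraries lay below both NM-Brdi libraries for 34 genes, against 35.7% of all tested genes, and above them for 1, Rrm1, against 36.0%. The fitted fold change was negative for 36 genes (50.6% of all tested genes) and positive for 1 (49.4%), with a median of -0.40 for the 37 genes and -0.01 for all tested genes. The calls numbered 0 in each fit that left out a Brd or NM-Brdi library, when 0.484% to 0.776% of all tested genes were called lower, 1 without either control library, when 1.65% to 1.67% were, and 27 without either NM-DMSO library, when 20.5% to 21.6% of all tested genes were called lower.

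Control against NM-DMSO gave 2 genes called higher and 0 lower by edgeR's quasi-likelihood test, when 12% and 11.5% of all tested genes were called. At an unadjusted p under 0.05, 4 were higher (20.4% of all tested genes) and 3 lower (22.5%). DESeq2 called 2 higher and 2 lower, against 14.3% and 13.8% of all tested genes. Pole was 1.70-fold higher in control, a log2 fold change of 0.76 ± 0.18 (SE) with an adjusted p of 0.0252. Mcm2 was 1.24-fold higher in control, a log2 fold change of 0.31 ± 0.09 (SE) with an adjusted p of 0.0498. There were 20 genes with a positive value and 17 with a negative, against 48.9% and 51.1% of all tested genes, and a median of 0.05, against -0.02 for all tested genes. Rpa2 had a log2 fold change of -0.75 ± 0.26 (SE), Gins4 of -0.62 ± 0.23 (SE) and Fen1 of 0.57 ± 0.33 (SE), and none of these was called. Without NM-DMSO replicate 1 they were at -0.26, -0.19 and 0.15, and without NM-DMSO replicate 2 at -1.12, -0.96 and 1.20. The count of genes called higher was 0 in each fit that left out a Brd, control or NM-Brdi library, when 2.53% to 5.98% of all tested genes were called higher. It was 8 without NM-DMSO replicate 1 and 7 without NM-DMSO replicate 2, when 18.5% and 31.8% of all tested genes were called higher. Where a fit left a lone library in a group, that library is assumed to vary like the others. This contrast shares its control libraries with Brd against control and its NM-DMSO libraries with NM-Brdi against NM-DMSO.

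Of the 4 groups, NM-DMSO had the widest gap between its 2 libraries. The median absolute log2 difference between the libraries of a group over the 37 genes was 0.33 for NM-DMSO, 0.10 for Brd, 0.08 for control and 0.06 for NM-Brdi. For all tested genes it was 0.36 for NM-DMSO, 0.10 for Brd, 0.09 for control and 0.11 for NM-Brdi. In NM-DMSO 6 of the 37 genes were over 1.5-fold apart, as were 28.1% of all tested genes, and 0 were in the other groups. NM-DMSO replicate 1 was the highest of the 8 libraries for 16 genes and the lowest for 2. Its excess over replicate 2 on the log2 scale was largest for Rpa2 at 0.85, Gins1 at 0.81, Gins4 at 0.75 and Rfc2 at 0.73, and lowest for Fen1 at -0.92, Prim1 at -0.55 and Pole at -0.51. Across the 37 genes this difference had a Spearman's rho of -0.31 with exon length, and across 16623 tested genes with a length rho was -0.30. These are descriptions across genes of 1 pair of libraries, and genes are not independent replicates.

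For 6 of the 37 genes, reads may be split with a processed pseudogene, an intronless copy that matched the transcript over at least 200 nt at 95% identity or more. Pcna had 14470 counts over the 8 libraries and its copy Pcna-ps2 had 40644. Mcm7 had 2870 counts and Gm5487 had 24792. Tyms had 2699 counts and Tyms-ps had 11449. The copies held more reads than the gene in each of these 3 cases, and the sources used here do not give how reads that fit several places were counted. Cdc6 had 2969 counts and Gm9430 had 4115. Rfc5 had 4853 counts and Gm12870 had 5893. The copy of Rrm2, Gm48455, was the smaller, with 4925 counts against 15450. The ratio of copy to gene was steady for Pcna, at 2.72 to 2.91 over the libraries. It varied for the others, and NM-DMSO replicate 1 had the lowest ratio for Mcm7, Cdc6, Rfc5 and Rrm2 and the highest for Tyms.

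When each gene was summed with its copy, 10 of the 37 were called lower in Brd against control, when 3.48% of all features in that fit were called lower. The 3 additions were Cdc6 with a log2 fold change of -0.61 ± 0.14 (SE) and an adjusted p of 0.0400, Mcm7 with -0.48 ± 0.09 (SE) and 0.0221, and Rfc5 with -0.43 ± 0.09 (SE) and 0.0326, all in edgeR's quasi-likelihood test. Mcm7 with Gm5487 had 131 and 132 CPM in Brd, against 185 and 182 CPM in control, and 186 and 178 CPM in NM-Brdi, against 163 and 174 CPM in NM-DMSO. Cdc6 with Gm9430 had 32.6 and 33.0 CPM in Brd, against 51.7 and 48.2 CPM in control, and 45.5 and 48.3 CPM in NM-Brdi, against 36.1 and 45.9 CPM in NM-DMSO. Brd was the lowest group for both sums. A further limit holds for 10 genes whose exons overlap a gene on the other strand with at least 10% as many counts, since the strand setting of the counting is not stated. These are Ccne2, Cdc45, Fen1, Gins2, Lig1, Mcm7, Orc1, Orc6, Rfc4 and Rfc5. For 23 genes neither limit applied, among them Cdt1, Mcm3, Mcm4, Mcm5, Mcm10 and Pola1.

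**Figure D4:**
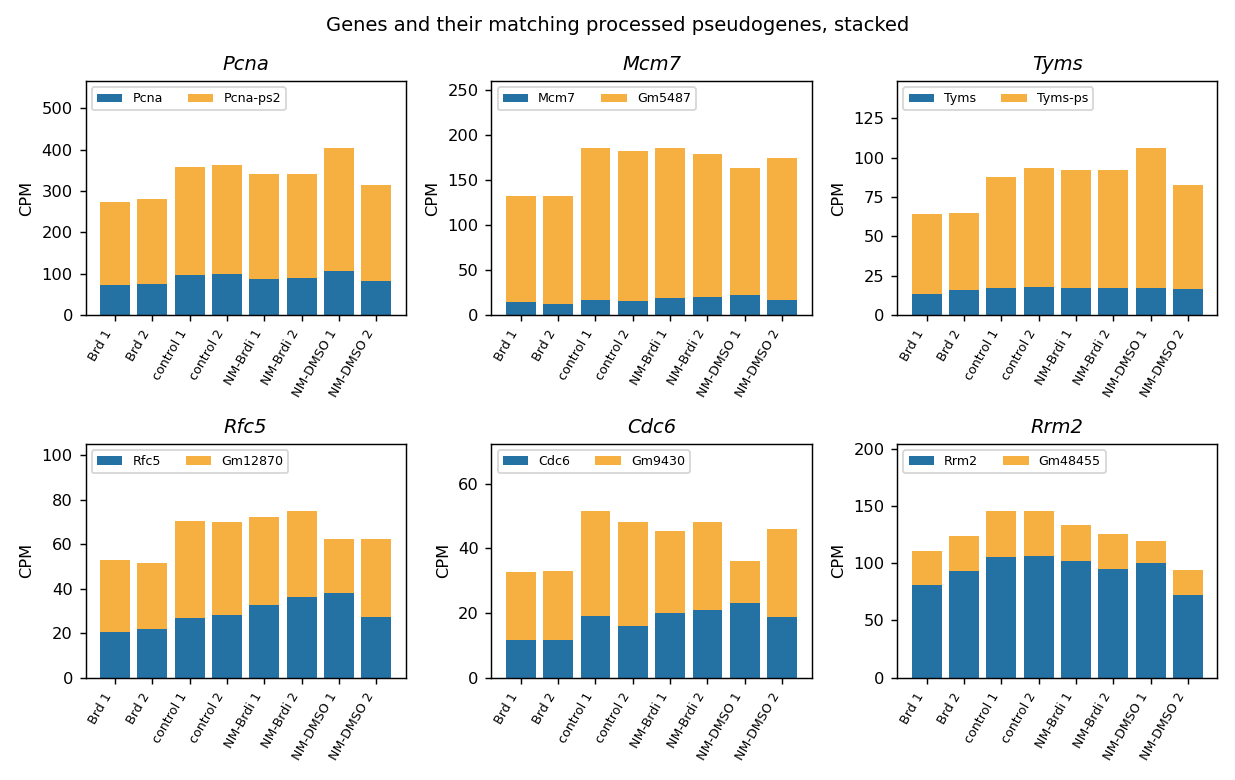
Stacked CPM (y axis, from 0) of 6 genes (blue) and their matching processed pseudogenes (orange) in the 8 libraries (x axis). The copy is the larger share in every library for Pcna, Mcm7 and Tyms and in 7 of 8 libraries for Cdc6 and Rfc5, and the stacked bars are lowest in Brd for each gene except Rrm2, where NM-DMSO replicate 2 is lowest.

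Further genes of replication and the cell cycle were compared in Brd against control, from 6 lists. By edgeR's quasi-likelihood test, 3.45% of all tested genes were called lower and 3.13% higher in this contrast. Of 36 further replication genes, 1 was called lower and 0 higher, with a median log2 fold change of -0.32. The called gene was Dbf4, the activator of the kinase Cdc7, with 44.7 and 45.3 CPM in Brd against 65.7 and 68.2 CPM in control. Of 28 further nucleotide synthesis genes, 3 were lower and 1 higher, with a median of -0.27. Tk1, the thymidine kinase of S phase, had 30.0 and 27.5 CPM in Brd against 56.0 and 56.3 CPM in control. Shmt1, a folate enzyme that serves thymidylate synthesis, had a log2 fold change of -0.83 ± 0.14 (SE), and Samhd1, which breaks down deoxynucleotides, one of -0.56 ± 0.09 (SE). Rrm2b, the reductase subunit that p53 induces, went the other way, with 30.8 and 30.0 CPM in Brd against 17.6 and 16.2 CPM in control, a log2 fold change of 0.84 ± 0.17 (SE) and an adjusted p of 0.0253 in edgeR's quasi-likelihood test. In these 6 lists it was the 1 gene called higher.

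Of 15 further genes of the E2F family and its partners, 1, the kinase gene Cdk2, was called lower, against 3.45% of all tested genes. The median of this list was -0.36. Of 16 other S-phase genes known as E2F targets, 3 were called lower, with a median of -0.38. These were Uhrf1, a reader of hemimethylated DNA, with a log2 fold change of -0.75 ± 0.11 (SE), Chek1, a checkpoint kinase, with -0.79 ± 0.13 (SE), and Hells, a chromatin remodeller, with -0.65 ± 0.15 (SE). Of 22 mitosis genes, 14 were called lower, with a median of -0.65. Among them Ccna2, cyclin A2, had 68.2 and 71.0 CPM in Brd against 134.6 and 127.9 CPM in control. Of 8 tested genes for CDK inhibitors, D cyclins and Myc, 3 were called lower. Cdkn2c, an inhibitor of CDK4 and CDK6, had 111.4 and 117.1 CPM in Brd against 170.5 and 173.2 CPM in control, a log2 fold change of -0.59 ± 0.09 (SE) with an adjusted p of 0.0102 in edgeR's quasi-likelihood test. Ccnd1, cyclin D1, had 132.8 and 143.7 CPM in Brd against 315.8 and 319.3 CPM in control, and Myc had 69.3 and 81.7 CPM in Brd against 137.4 and 146.2 CPM in control. In NM-Brdi against NM-DMSO, 0 genes were called in the first 5 of these lists and 2 were lower in the last by edgeR's quasi-likelihood test. Of all tested genes, 1.05% were called lower and 0.816% higher in that contrast. Myc was among the 2, with 68.7 and 87.8 CPM in NM-Brdi against 206.3 and 175.2 CPM in NM-DMSO. In Brd against NM-Brdi, mitosis genes had 17 of 22 called lower, against 3.77% of all tested genes, with a median of -0.69. No test of a list against other genes was run.

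**Figure D5:**
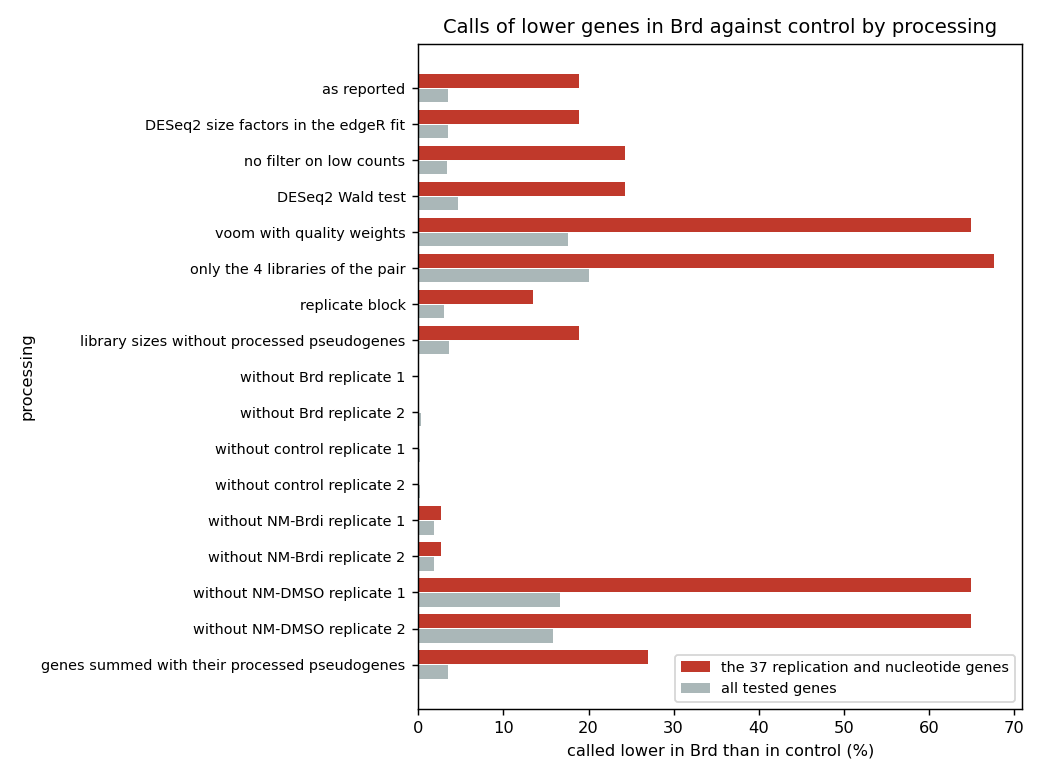
Share of genes called lower in Brd against control (x axis, percent) for the 37 genes (red) and all tested genes (grey) under each way of processing (y axis). The count for the 37 genes was 7 as reported, 25 when only the 4 libraries of the pair were fitted, and 0 in each fit that left out a Brd or control library.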

How the data were processed

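Per the labels' protocols, RNA was extracted with Trizol and sequenced from libraries that were poly(A)-enriched or depleted of ribosomal RNA. The submitters' processing notes list STAR 2.7.10a, Trimmomatic 0.39, FastQC 0.11.9 and featureCounts 2.0.3 as tools, and both GRCm38 and GRCh38 as builds. The deposited values are whole-number counts per gene, not normalised. Not given in the sources used here are the strand setting, the annotation and the handling of multi-mapping reads.

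The 37 genes were found by symbol. The genes and lists were chosen with earlier results of these data known. Genes were filtered with filterByExpr, scaled with TMM and fitted with edgeR 4.0.16 (R 4.3.3) in 1 quasi-likelihood fit of 8 libraries with 1 term per group. The SE comes from the F statistic, and p-values were adjusted by Benjamini-Hochberg across 17038 tested genes. Alternatives used DESeq2 1.42.0 and voom in limma 3.58.1, and the fit was tested on simulated counts. Symbols were matched to GENCODE M21 (96.9%), and transcripts were aligned with BLAST+ 2.17.0. By rule, values per library are given for 8 fixed genes and the extremes of each role group, and up to 3 called genes per further list are named. Cdt1, Mcm3, Mcm4, Pola2 and Rfc5, and the extremes of the other contrasts, were added after their values were seen. Upstream sequence is that of RefSeq. An upstream stretch of Rfc3 was left out because no whole match lay in exon-free bases before its start.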

Additional observations from a re-analysis of the deposited data

Results flagged for a closer look

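Processed pseudogenes that matched 6 of the 37 genes held counts that stand outside the 37 genes. Over the 8 libraries Pcna-ps2 had 40644 counts, Gm5487 (matching Mcm7) 24792, Tyms-ps 11449, Gm12870 (matching Rfc5) 5893, Gm48455 (matching Rrm2) 4925 and Gm9430 (matching Cdc6) 4115. Whether these reads came from the genes or from the copies was not tested. Gm48455 itself was called higher in control against NM-DMSO, with a log2 fold change of 1.00 ± 0.11 (SE) and an adjusted p of 0.00138 in edgeR's quasi-likelihood test, and in NM-Brdi against NM-DMSO, with 0.60 ± 0.11 (SE) and 0.0418. Gm5487 was called lower in Brd against control, with -0.50 ± 0.10 (SE) and 0.0251.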

How the results depend on the processing

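In Brd against control the number of genes called lower was 24 with voom quality weights and 25 when only the 4 libraries of the pair were fitted, when 17.6% and 20.1% of all tested genes were called lower, and 0 to 24 when leaving out 1 library. In Brd against NM-Brdi it was 10 with no filter on low counts (4.7% of all tested genes), 26 with voom (20.3%), 26 with the pair alone (20.9%), and 0 to 27 leaving out 1 library. In NM-Brdi against NM-DMSO 1 gene was called higher with no filter (3.52%), with 0 to 6 higher and 0 to 11 lower leaving out 1 library. In the interaction 1 was lower with no filter (1.26%) and 2 with DESeq2 (1.39%), with 0 to 20 lower and 0 to 3 higher leaving out 1 library. In control against NM-DMSO 3 were lower with no filter (11%) and 2 with DESeq2 (13.8%). The count was 13 without NM-DMSO replicate 2 (32.1%), the top of a range of 0 to 13 leaving out 1 library in this contrast. There 1 was higher with no filter (10.7%), 0 with voom (7.96%), 0 with the pair alone (1.9%), 1 with library sizes without processed pseudogenes (11.5%), and 0 to 8 leaving out 1 library. Each fit that left out 1 library had a group with a lone library, which was assumed to vary like the others. The cause was not tested.

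Replicate numbers pair nothing in the labels, and deviations of libraries with the same number had correlations of -0.01 to 0.19. With a replicate block, 5 genes were lower in Brd against control (3.07% of all tested genes), 4 in Brd against NM-Brdi (3.13%), and 1 was higher in control against NM-DMSO (11.9%).

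Signs turned for the genes named here, some of them far from 0 as reported, and for further genes not named. With each gene counted in each setting, signs turned 50 times in NM-Brdi against NM-DMSO. They turned 21 times in control against NM-DMSO and 14 times in the interaction. In the interaction, Gins4 ranged from -0.319 to 0.466 and Rpa2 from -0.471 to 0.409 leaving out 1 library. Leaving out 1 library in Brd against control, Gins2 ranged from -0.281 to 0.043 (above 0 without control replicate 1), Pole2 from -0.08 to 0.258 (below 0 without Brd replicate 2), Rfc2 from -0.082 to 0.036 (above 0 without Brd replicate 1, and 0.023 without control replicate 1) and Fen1 from -0.181 to 0.185 (below 0 without Brd replicate 1, control replicate 2 or NM-DMSO replicate 1). Fen1 was at -0.007 with voom. In NM-Brdi against NM-DMSO, Rpa2 ranged from -0.829 to 0.041 (above 0 without NM-DMSO replicate 1), Rfc2 from -0.743 to 0.001, Gins1 from -0.641 to 0.215 and Orc6 from -0.493 to 0.026, and Fen1 in Brd against NM-Brdi from -0.283 to 0.083 (above 0 without Brd replicate 2). In control against NM-DMSO, Ccne1 ranged from -0.348 to 0.147 (above 0 without NM-DMSO replicate 1) and Cdc45 from -0.07 to 0.311 (below 0 without control replicate 2), and Gins1 from -0.847 to 0.001. Summed with their pseudogenes, an alternative chosen after seeing the data, Cdc6 was at 0.285, Mcm7 at 0.122 and Tyms at -0.061 there. Each time the cause was not tested.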
